A study of Arabidopsis thaliana with 8 samples.

Results

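SPCHΔ49 basl-2, an Arabidopsis thaliana line that carries a truncated SPEECHLESS (SPCH) behind the 35S promoter in the basl-2 mutant (genotype 35S:SPCHΔ49, basl-2; 3 samples), was compared with the wild type (WT; 2 samples) over all 18855 listed genes. The comparison takes 5 of the 8 RNA-seq samples of the series. The other 3, from 35S:SPCHΔ49 without basl-2 (called SPCHΔ49), enter no contrast with WT and serve to measure the spread and to test, for named genes and lists, whether SPCHΔ49 basl-2 differs from them. All samples were whole untreated seedlings of 12 days, grown on 1/2 MS medium in long days. WT carried neither the transgene nor the basl-2 allele, so the contrast does not separate the transgene from the allele. The 35S promoter is active in nearly all tissues, so SPCHΔ49 is not limited to the epidermis, and the labels do not say how many transgenic lines were used.

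Entry into the stomatal lineage of the leaf epidermis is set off by SPCH, a transcription factor of the basic helix-loop-helix family. MAP kinases normally mark it for degradation, and the truncated form is insensitive to that. After SPCH, the related factors MUTE and FAMA carry cells to the guard mother cell and the paired guard cells. BASL is a scaffold that sits at a single pole of the dividing lineage cell, recruits the MAP kinase cascade there and so lowers SPCH in the larger daughter. According to the series' design, seedlings with SPCHΔ49 form too many stomatal lineage cells in either background, and the transcriptomes were compared to look for regulators of stomata.

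The values are the authors' expression signal per gene, headed TPM and rescaled in a way no source states. In the 5 libraries the signal summed to between 959355 and 1075376, with a median gene between 12.3 and 13.4. Read numbers are unknown, so no counting error can be given. Between SPCHΔ49 basl-2 replicates, 3.69% to 9.85% of the genes lay at least 2-fold apart, against 1.61% between the WT replicates. Replicates 2 and 3 were farthest apart (9.85%), with 4.2% between 1 and 2 and 3.69% between 1 and 3. Of 13739 genes with a mean signal of at least 5 in SPCHΔ49 basl-2, 145 lay at least 4-fold below both other replicates in replicate 2. For replicates 1 and 3 these numbers were 3 and 4. At least 4-fold above both others lay 0, 4 and 17 genes in replicates 1, 2 and 3. Replicate 3 had the fewest genes at 0 (141, against 318 and 355) and the largest plastid share of signal (0.253%, against 0.141% and 0.135%). Separate culture of the replicates is not stated in the labels, so a p-value here measures only the spread between these samples, which may be technical.

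SPCH (AT5G53210) had a signal of 397, 338 and 487 in SPCHΔ49 basl-2, against 8.20 and 5.65 in WT. All 3 SPCHΔ49 basl-2 libraries lay far above both WT libraries, as the label calls for, with a log2 fold change of 5.69 (SE 0.19, limma adjusted p 8.3e-06). A value per gene cannot separate the transgene from the native transcript. BASL (AT5G60880) had 2.1, 3.23 and 2.90 in SPCHΔ49 basl-2, against 3.34 and 3.52 in WT. The SPCHΔ49 basl-2 libraries were a little lower without overlap, and the log2 fold change of -0.26 did not pass the test (adjusted p 0.451). Against SPCHΔ49, where BASL stood at 59.7, 58.1 and 35.3, the log2 difference was -3.77 (adjusted p 0.00152). Transcript can still be made from a mutant allele, so the BASL level is no check of the basl-2 label. All fold changes are differences of log2(signal + 1), which makes those of genes with low signal too small, and adjusted p-values are limma's with Benjamini-Hochberg adjustment over all 18855 genes.

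At an adjusted p under 0.05, 2382 genes (12.6% of those tested) were higher in SPCHΔ49 basl-2 than in WT and 4076 (21.6%) were lower. At least 2-fold differences made up 629 (3.34%) and 1699 (9.01%) of the genes. Of the listed genes 14 and 29 stood at 0 in the WT libraries, against 318, 355 and 141 in SPCHΔ49 basl-2. Genes silent in WT are thus scarce in the table, and what part this has in the balance between the directions was not tested. The balance between the directions moved with the scaling: 36.9% of the calls were higher as deposited, and 49% after quantile normalization (3131 higher and 3254 lower), which moved the median log2 fold change of all genes to 0.06 from -0.06. The WT pair carried much of the weight. Without WT replicate 1 the counts were 779 higher and 2127 lower, without WT replicate 2 825 and 2116, and without SPCHΔ49 basl-2 replicate 1 1389 and 2961. Each list of genes below is read against 12.6% higher and 21.6% lower, and each count against SPCHΔ49 against 2.05% higher and 3.36% lower of all genes. A list whose share lies near these is not set apart by its count, also where the share is not printed. Of all 18855 genes, SPCHΔ49 basl-2 lay above WT without overlap in 4996 and below in 6693. Groups that do not overlap are thus common, and the largest changes named were chosen among such genes.

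**Figure D1:**
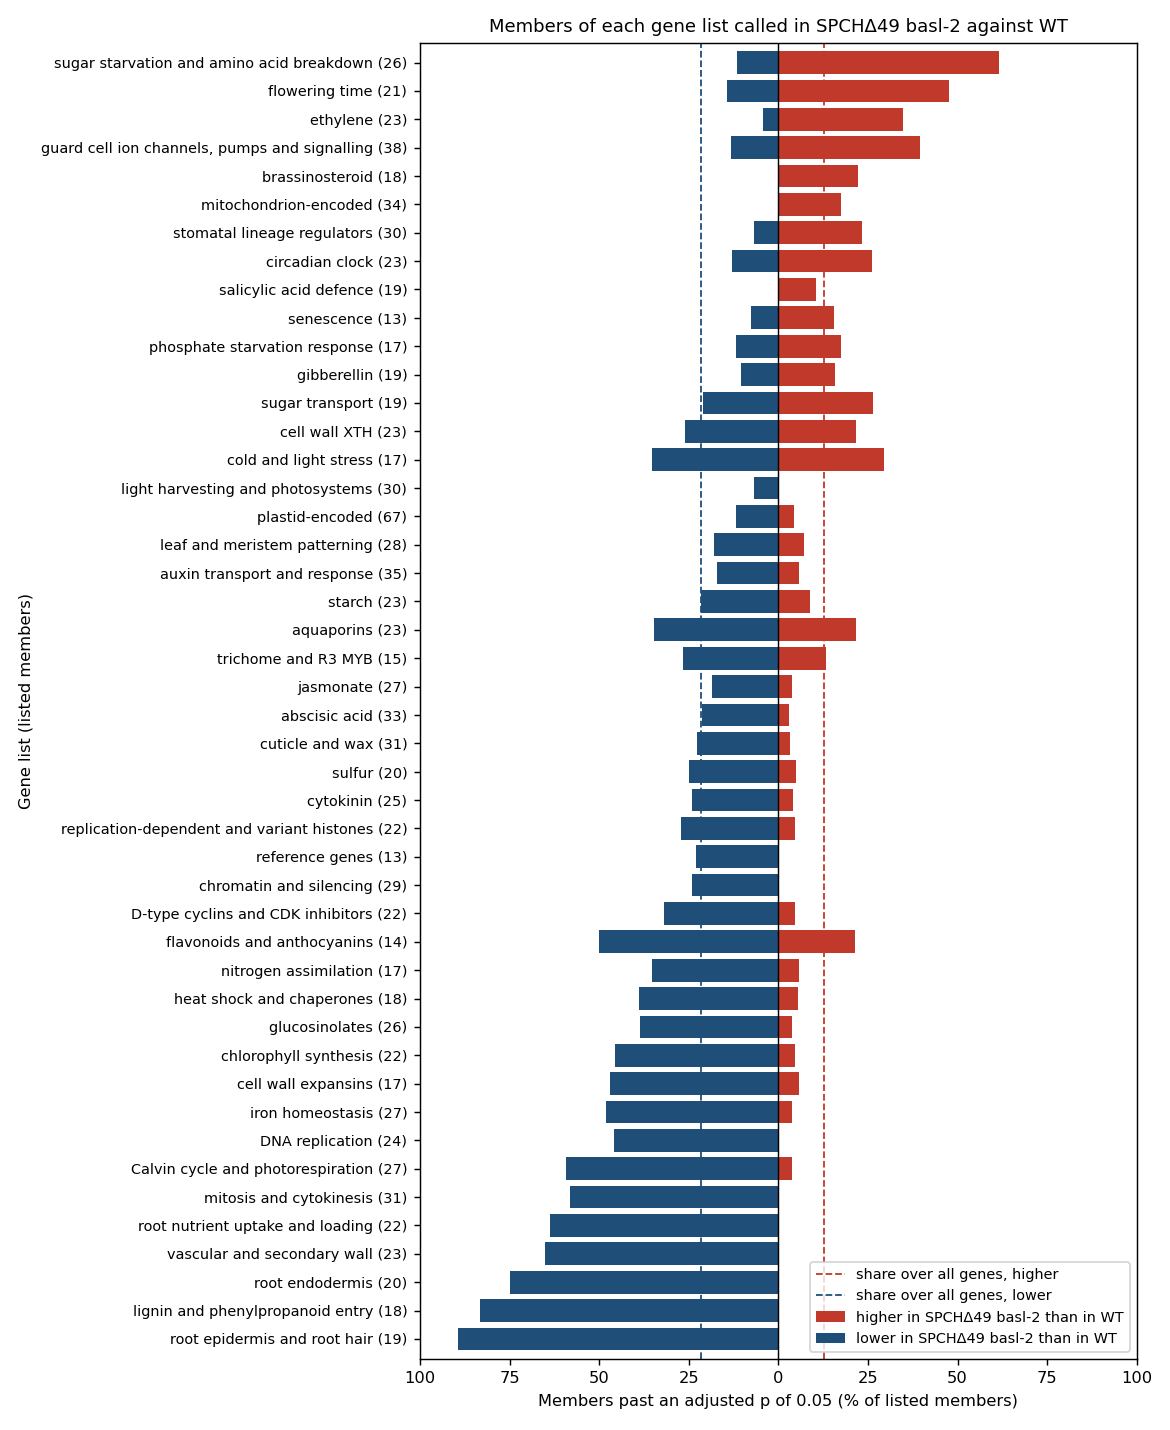
Share of the listed members of each gene list with at least 10 listed members that passed an adjusted p of 0.05 in SPCHΔ49 basl-2 against WT, in percent, with members higher in SPCHΔ49 basl-2 to the right and lower ones to the left; the number of listed members is in brackets and dashed lines give the shares over all genes. Sugar starvation and amino acid breakdown genes reach the largest share to the right (61.5%), and root epidermis and root hair genes the largest to the left (89.5%). The lists were chosen with earlier results of these data known.

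Most root marker genes were lower in SPCHΔ49 basl-2. Of 19 listed genes of the root epidermis and root hairs, 17 were lower and 0 were higher, with a median of 0.841% of the WT mean. Of 20 endodermis genes 15 were lower and 0 higher, at a median of 2.36%, and of 22 genes of root nutrient uptake and xylem loading 14 were lower, at a median of 25.2%. Of the defining markers, 4 root hair genes and 2 endodermis genes were listed at 0 in all 3 SPCHΔ49 basl-2 libraries, MRH6 (AT2G03720) among them with 4.94 and 5.68 in WT. CASP4 (AT5G06200), which builds the Casparian strip, had 0.0791, 0.0749 and 0.0814 in SPCHΔ49 basl-2, against 4.6 and 5.48 in WT. HKT1 (AT4G10310), which takes sodium out of the xylem, had 0.859, 1.2 and 0.884 in SPCHΔ49 basl-2, against 8.21 and 7.30 in WT. In each of these genes every SPCHΔ49 basl-2 library lay below both WT libraries. RHS13 (AT4G02270), a root hair gene, had 0, 0 and 0.217 in SPCHΔ49 basl-2, against 11 and 11.5 in WT. Among the members that did not pass were GL2 (AT1G79840), a homeobox gene of the epidermis, and the nitrate transporter gene NRT1.1 (AT1G12110), with log2 fold changes of 0.20 and -0.39. Summed over each list, the endodermis genes had 109.8, 130.5 and 118 in SPCHΔ49 basl-2, against 297 and 309.5 in WT, and the root hair genes 21.1, 22.5 and 24.6, against 111 and 132. SPCHΔ49 was similarly low, with 125, 109 and 119 for the endodermis genes and 23.1, 16.0 and 14.9 for the root hair genes. Against SPCHΔ49 0 members of either list passed, with 1 endodermis gene higher without SPCHΔ49 basl-2 replicate 3. Genes near 0 in both overexpressors could be in the table only through WT, so such members could only come out lower. The labels give whole seedlings for all samples. In bulk tissue fewer root cells and less RNA per root cell cannot be told apart, and what part the low root markers have in the results below was not tested.

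Genes of sugar starvation and amino acid breakdown, which plants switch on in the dark or when sugar runs short, were higher in SPCHΔ49 basl-2. Of 26 listed members 16 were higher and 3 lower, the largest share of higher members among the lists of at least 10 genes (61.5%, against 12.6% of all genes), with a median log2 fold change of 1.46 beside -0.06 over all genes. The lists were chosen with earlier results of these data known, so this rank is no independent support. The number of higher members was between 13 and 19 when any 1 of the 8 libraries was left out. Branched-chain amino acids are taken apart in mitochondria, and the listed genes of that pathway, BCAT2, DIN3, DIN4, IVD, MCCA and MCCB, were all higher. BCAT2 (AT1G10070), the transaminase of the first step, had 313, 306 and 211 in SPCHΔ49 basl-2, against 12.9 and 14.1 in WT, a log2 fold change of 4.24 (SE 0.40, adjusted p 0.000385). DIN4 (AT3G13450), a subunit of the branched-chain keto acid dehydrogenase, had 386, 355 and 262 in SPCHΔ49 basl-2, against 43.3 and 48.8 in WT. DIN3 (AT3G06850), another subunit, had 138, 121 and 89.8 in SPCHΔ49 basl-2, against 32.2 and 32.4 in WT. The SPCHΔ49 basl-2 libraries of these 3 genes lay above WT without overlap, and replicate 3 was the lowest of the 3 in each.

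IVD (AT3G45300), isovaleryl-CoA dehydrogenase of leucine breakdown, had 291, 207 and 250.0 in SPCHΔ49 basl-2, against 69.2 and 73.3 in WT (log2 fold change 1.78, SE 0.23, adjusted p 0.00155). MCCA (AT1G03090) and MCCB (AT4G34030), the subunits of methylcrotonyl-CoA carboxylase in the same pathway, had log2 fold changes of 2.32 and 1.57 (SE 0.17 and 0.11, adjusted p 0.000105 and 0.000105). ETFQO (AT2G43400), which passes electrons from these dehydrogenases to ubiquinone, had 90.7, 86.0 and 80.4 in SPCHΔ49 basl-2, against 25.3 and 28.0 in WT (log2 fold change 1.65), with the lowest adjusted p of the list (4.18e-05). Its SPCHΔ49 basl-2 libraries lay close together and more than 2 times above WT. D2HGDH (AT4G36400), the 2-hydroxyglutarate dehydrogenase that feeds ETFQO from lysine, had 17.2, 13.8 and 17.3 in SPCHΔ49 basl-2, against 14.5 and 15.1 in WT and did not pass (adjusted p 0.562).

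Proline breakdown and the amide storage of nitrogen were represented too. PRODH1 (AT3G30775), proline dehydrogenase, had 703, 729 and 479 in SPCHΔ49 basl-2, against 87.0 and 61.1 in WT. DIN6 (AT3G47340), the dark-induced asparagine synthetase, had 2463, 2494 and 1625 in SPCHΔ49 basl-2, against 249 and 316 in WT. The groups were far apart in both genes, with log2 fold changes of 3.08 and 2.94 (adjusted p 9.88e-05 and 0.000203). ASN2 (AT5G65010), another asparagine synthetase, was lower with 28.9, 21.2 and 55.7 in SPCHΔ49 basl-2, against 196 and 195 in WT (-2.55 on the log2 scale, adjusted p 0.00263). Among genes outside the list, THA1 (AT1G08630), threonine aldolase, had 258, 341 and 164 in SPCHΔ49 basl-2, against 10.5 and 7.65 in WT, the largest log2 fold change after SPCH among the genes named for their increase (4.62, SE 0.32, adjusted p 8.34e-05). Nitrogen assimilation had 1 of 17 members higher and 6 lower, among them plastid glutamine synthetase GLN2 (AT5G35630) with 982, 839.6 and 1008 in SPCHΔ49 basl-2, against 1475 and 1630.4 in WT. Ferredoxin glutamate synthase GLU1 (AT5G04140) had 185, 123 and 196 in SPCHΔ49 basl-2, against 318 and 327 in WT. These nitrogen counts rested on the WT pair, with 1 and 0 lower without WT replicates 1 and 2 and 3 without SPCHΔ49 replicate 2. GLN2 had an adjusted p of 0.00926, or 0.0758 without WT replicate 2, and GLU1 0.0103, or 0.0648 and 0.0697 without WT replicates 1 and 2.

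Other sugar-repressed genes of the list were DIN1 (AT4G35770), a sulfurtransferase-like gene of darkened leaves, with 4247, 4120.1 and 2327 in SPCHΔ49 basl-2, against 423 and 568 in WT. DIN10 (AT5G20250), of the raffinose synthase family, had 1434, 1584 and 1111 in SPCHΔ49 basl-2, against 342 and 292 in WT. DIN9 (AT1G67070), a phosphomannose isomerase, had 20.4, 17.2 and 15.6 in SPCHΔ49 basl-2, against 7.09 and 5.91 in WT. In all 3 the lowest SPCHΔ49 basl-2 library was at least 2 times the highest WT library. RFS2 (AT3G57520), a further raffinose synthase relative outside the list, had 408, 270.4 and 314 in SPCHΔ49 basl-2, against 31.0 and 30.8 in WT (log2 fold change 3.36, adjusted p 0.000836). DIN2 (AT3G60140), a beta-glucosidase, varied too much to pass, with 31.0, 3.02 and 66.7 in SPCHΔ49 basl-2, against 0.641 and 1.26 in WT (adjusted p 0.123). Among the sugar-responsive class of trehalose phosphate synthases, TPS11 (AT2G18700) had 188, 180.2 and 146 in SPCHΔ49 basl-2, against 55.3 and 85.1 in WT (adjusted p 0.00431). TPS5 (AT4G17770) had 2.77, 3.01 and 2.73 in SPCHΔ49 basl-2, against 5.57 and 6.44 in WT (adjusted p 0.00166), so the class did not move as a whole.

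**Figure D2:**
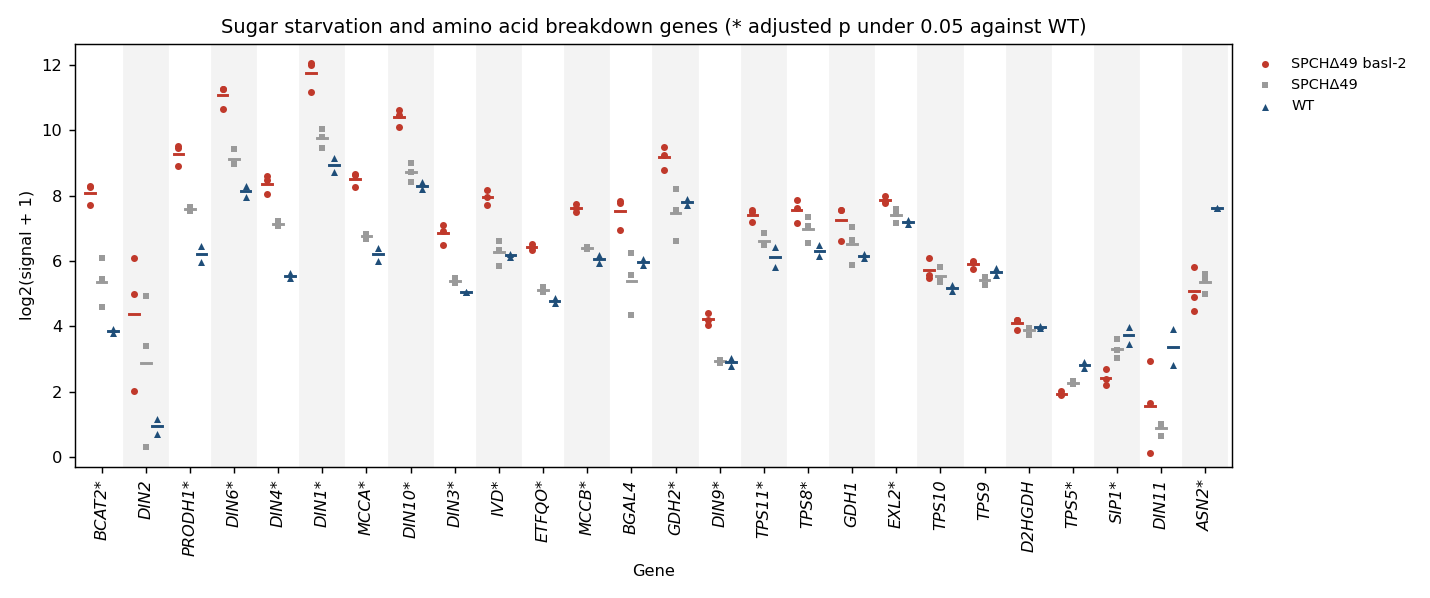
Signal of the listed sugar starvation and amino acid breakdown genes as log2(signal + 1), with a point per library and a bar at the group mean, for SPCHΔ49 basl-2 (3 libraries), SPCHΔ49 (3) and WT (2); genes run from the highest to the lowest log2 fold change against WT and an asterisk marks an adjusted p under 0.05 against WT. BCAT2, PRODH1, DIN6, DIN4 and DIN1 show SPCHΔ49 basl-2 above both other genotypes without overlap, and ASN2 shows both overexpressors below WT.

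Many starvation genes were also higher than in SPCHΔ49 without basl-2. Of the 26 members 14 passed the test of that difference as higher (against 2.05% of all genes) and 0 as lower, at a median difference of 1.26 beside -0.03 over all genes, and 9 passed without SPCHΔ49 replicate 2. PRODH1 had 202, 182 and 193 in SPCHΔ49, MCCA 108, 101 and 112, DIN6 686, 498 and 506 and ETFQO 32.0, 33.5 and 35.8, so that SPCHΔ49 basl-2 was higher by 1.70, 1.77, 1.95 and 1.32 on the log2 scale (adjusted p 0.00683, 0.00326, 0.00643 and 0.00156). THA1, with 28.5, 33.8 and 43.5 in SPCHΔ49, was higher by 2.77 (adjusted p 0.00533). BCAT2 was higher by 2.72 (adjusted p 0.0101), which became 0.0533 without SPCHΔ49 basl-2 replicate 1 and 0.0596 without SPCHΔ49 replicate 2. RFS2 was higher by 2.54 (0.0101), with 0.0526 and 0.057 without the same libraries. THA1, BCAT2 and RFS2 were named for their large increases, and the same SPCHΔ49 basl-2 values enter this test.

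Sugar transporters and starch enzymes were found on both sides. Of 19 sugar transport genes 5 were higher (26.3%, against 12.6% of all genes) and 4 lower (21.1%, near the 21.6% of all genes). The lower number fell without WT replicate 2. STP1 (AT1G11260), a monosaccharide importer of the plasma membrane, had 1741, 1993 and 990.1 in SPCHΔ49 basl-2, against 204 and 211 in WT. STP14 (AT1G77210), a galactose transporter, had 107, 99.2 and 63.4 in SPCHΔ49 basl-2, against 18.2 and 24.1 in WT. SWEET1 (AT1G21460), a glucose transporter, had 73.8, 68.4 and 44.8 in SPCHΔ49 basl-2, against 10.5 and 8.26 in WT. In these 3 genes no SPCHΔ49 basl-2 library came near WT, with log2 fold changes of 2.85, 2.02 and 2.59 (adjusted p 0.00135, 0.00357 and 0.0025). SWEET15 (AT5G13170), a sucrose exporter also known as SAG29, was low with 1.96, 1.75 and 1.5 in SPCHΔ49 basl-2, against 16.7 and 26.9 in WT (log2 fold change -3.02). Among 23 starch genes 2 were higher and 5 lower (21.7%, near the 21.6% of all genes). The disproportionating enzyme gene DPE1 (AT5G64860), which acts in starch breakdown, had 35.2, 33.6 and 30.1 in SPCHΔ49 basl-2, against 13.5 and 19.7 in WT (adjusted p 0.004). Starch synthase gene SS2 (AT3G01180) had 16.5, 13.3 and 15.8 in SPCHΔ49 basl-2, against 25.1 and 24.1 in WT (adjusted p 0.00489). Lower starch members numbered 2 and 1 without WT replicates 1 and 2, and higher ones 1 without WT replicate 1.

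Of 38 listed genes of guard cell channels, pumps and signalling 15 were higher and 5 lower, and the number of higher members stayed between 11 and 15 when any 1 library was left out. The kinase HT1 (AT1G62400), which keeps stomata open at low CO2, had 9.18, 7.82 and 7.35 in SPCHΔ49 basl-2, against 2.68 and 2.52 in WT. BLUS1 (AT4G14480), a kinase of the blue light response, had 16.6, 19.4 and 20.4 in SPCHΔ49 basl-2, against 6.98 and 4.86 in WT. SLAC1 (AT1G12480), the anion channel of stomatal closure, had 8.30, 7.13 and 4.91 in SPCHΔ49 basl-2, against 1.63 and 1.83 in WT. All SPCHΔ49 basl-2 libraries of these 3 genes lay above WT, with log2 fold changes of 1.34, 1.53 and 1.49 (adjusted p 0.000594, 0.000631 and 0.0032). AHA5 (AT2G24520), a proton pump, had 23.0, 23.3 and 23.2 in SPCHΔ49 basl-2, against 11.8 and 11.1 in WT, with hardly any spread (log2 fold change 0.96, SE 0.08, adjusted p 0.000253). TGG1 (AT5G26000), the myrosinase of guard cells, had 1428, 1267 and 1616 in SPCHΔ49 basl-2, against 802 and 796 in WT (adjusted p 0.00499). Its close relative TGG2 (AT5G25980) had a log2 fold change of -0.01 that did not pass. Over the whole list the median log2 fold change was 0.17. The summed signal overlapped WT, with 4907.5, 4032.3 and 5322.1 in SPCHΔ49 basl-2, against 4865.1 and 4929.4. The lower members were CA4, RBOHF, CLC-A, GHR1 and MYB61, of which 2 and 1 passed without WT replicates 1 and 2, 2 and 3 without SPCHΔ49 basl-2 replicates 1 and 2 and 2 without SPCHΔ49 replicate 2.

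Of 30 lineage regulators 7, SPCH among them, were higher and 2 lower. FAMA (AT3G24140), which ends the lineage in guard cells, had 59.6, 67.6 and 54.7 in SPCHΔ49 basl-2, against 23.3 and 16.4 in WT (log2 fold change 1.58, SE 0.16, adjusted p 0.000481). SCAP1 (AT5G65590), a guard cell maturation factor, had 12.7, 13.6 and 11.6 in SPCHΔ49 basl-2, against 5.58 and 5.29 in WT (adjusted p 0.00157). TMM (AT1G80080), the receptor-like protein of stomatal spacing, had 65.0, 53.3 and 48.3 in SPCHΔ49 basl-2, against 14.1 and 14.4 in WT (log2 fold change 1.88, SE 0.23, adjusted p 0.00129). In these 3 genes every SPCHΔ49 basl-2 library was more than 2 times the higher WT library. The epidermal homeodomain gene HDG2 (AT1G05230) had 22.0, 21.6 and 20.3 in SPCHΔ49 basl-2, against 15.6 and 13.5 in WT (adjusted p 0.00652, and 0.0525 without WT replicate 2). EPF2 (AT1G34245), a peptide that limits entry into the lineage, had 10.9, 7.01 and 11.3 in SPCHΔ49 basl-2, against 6.42 and 3.72 in WT, with an adjusted p of 0.0475 that was lost without SPCHΔ49 basl-2 replicate 1 (0.126) or 3 (0.095), WT replicate 1 (0.0527) or 2 (0.285), and each SPCHΔ49 replicate (0.0577, 0.0651 and 0.0647). The phosphatase gene BSL1 (AT4G03080) had 42.5, 35.2 and 43.8 in SPCHΔ49 basl-2, against 31.5 and 26.8 in WT (adjusted p 0.0373), lost without any 1 library except SPCHΔ49 basl-2 replicate 2 and SPCHΔ49 replicate 1 (0.0508 to 0.214). Without WT replicate 2, 4 members were higher.

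MYB88 (AT2G02820), a MYB factor of the last division of the lineage, was lower with 1.3, 1.61 and 1.66 in SPCHΔ49 basl-2, against 3.13 and 4.06 in WT (log2 fold change -0.86, adjusted p 0.00575, and 0.066 after quantile normalization). The gene of the EPF2 protease, CRSP (AT1G20160), was the other lower member with 7.78, 3.91 and 8.46 in SPCHΔ49 basl-2, against 13.6 and 17.1 in WT (adjusted p 0.0235, and 0.0822 and 0.147 without WT replicates 1 and 2). MUTE (AT3G06120) had 2.18, 1.40 and 2.15 in SPCHΔ49 basl-2, against 1.28 and 1.26 in WT. SCRM (AT3G26744), the partner of SPCH, had 68.3, 73.4 and 57.2 in SPCHΔ49 basl-2, against 43.2 and 45.8 in WT. The polarity gene POLAR (AT4G31805) had 5.90, 5.79 and 5.07 in SPCHΔ49 basl-2, against 6.38 and 7.61 in WT. None of these 3 passed, with adjusted p of 0.109, 0.0541 and 0.0993. Against SPCHΔ49 12 of the 30 members were lower and 0 higher. TMM, with 522, 406 and 296 in SPCHΔ49, had a log2 difference of -2.83 (adjusted p 0.00187). SPCH itself had a log2 difference of -2.62 (adjusted p 0.00156) and HDG2 one of -0.99 (0.00342). The basl-2 allele and the SPCH level thus differ together in every comparison with SPCHΔ49, and what part each has was not tested. EPF2 differed by -1.87 (0.00906, and 0.057 without SPCHΔ49 replicate 2). FAMA and SCAP1 did not pass that test, with differences of 0.33 and 0.34 (adjusted p 0.233 and 0.168).

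Many genes of cell division were lower. Of 31 mitosis and cytokinesis genes 18 were lower and 0 higher (median log2 fold change -0.73), and of 24 DNA replication genes 11 were lower and 0 higher (median -0.58). CDKB1;1 (AT3G54180), a plant cyclin-dependent kinase of the G2 phase that also acts in the stomatal lineage, had 2.46, 2.28 and 2.51 in SPCHΔ49 basl-2, against 4.31 and 6.52 in WT (log2 fold change -0.89, SE 0.16, adjusted p 0.00646). CENH3 (AT1G01370), the centromere histone, had 2.65, 2.59 and 2.30 in SPCHΔ49 basl-2, against 4.67 and 6.11 in WT (adjusted p 0.00698, and 0.058 without WT replicate 2). KNOLLE (AT1G08560), the syntaxin of the cell plate, had 13.4, 14.1 and 16.2 in SPCHΔ49 basl-2, against 28.0 and 40.0 in WT (adjusted p 0.00897, and 0.0757 without WT replicate 2). No SPCHΔ49 basl-2 library of these 3 genes reached a WT library. TSO2 (AT3G27060), a subunit of ribonucleotide reductase, fell to 9.74, 6.77 and 12.9 in SPCHΔ49 basl-2, against 39.5 and 52.4 in WT (log2 fold change -2.15, SE 0.31, adjusted p 0.00264).

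The division counts depended on single libraries. Mitosis genes called lower numbered 1 without WT replicate 2, which held the higher WT value in every gene called, 11 without WT replicate 1, and 8 and 11 without SPCHΔ49 basl-2 replicates 1 and 2. Replication genes numbered 2 and 2 without WT replicates 1 and 2, 4 and 5 without SPCHΔ49 basl-2 replicates 1 and 2, 17 and 7 without SPCHΔ49 replicates 1 and 2, and 5 after quantile normalization. Against SPCHΔ49 21 mitosis genes were lower (3.36% of all genes were) and 0 higher, with 3, 8, 2 and 9 lower without SPCHΔ49 basl-2 replicates 1 and 2 and SPCHΔ49 replicates 2 and 3. CDC20.2 (AT4G33260), an activator of the anaphase-promoting complex, had 6.09, 5.40 and 7.85 in SPCHΔ49 basl-2 and 17.3, 22.4 and 23.8 in SPCHΔ49, a difference of -1.57 (adjusted p 0.00683) that held under every leave-out. CDKA;1 (AT3G48750), the kinase present through the whole cycle, had a log2 fold change of 0.20 against WT and did not pass.

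**Figure D3:**
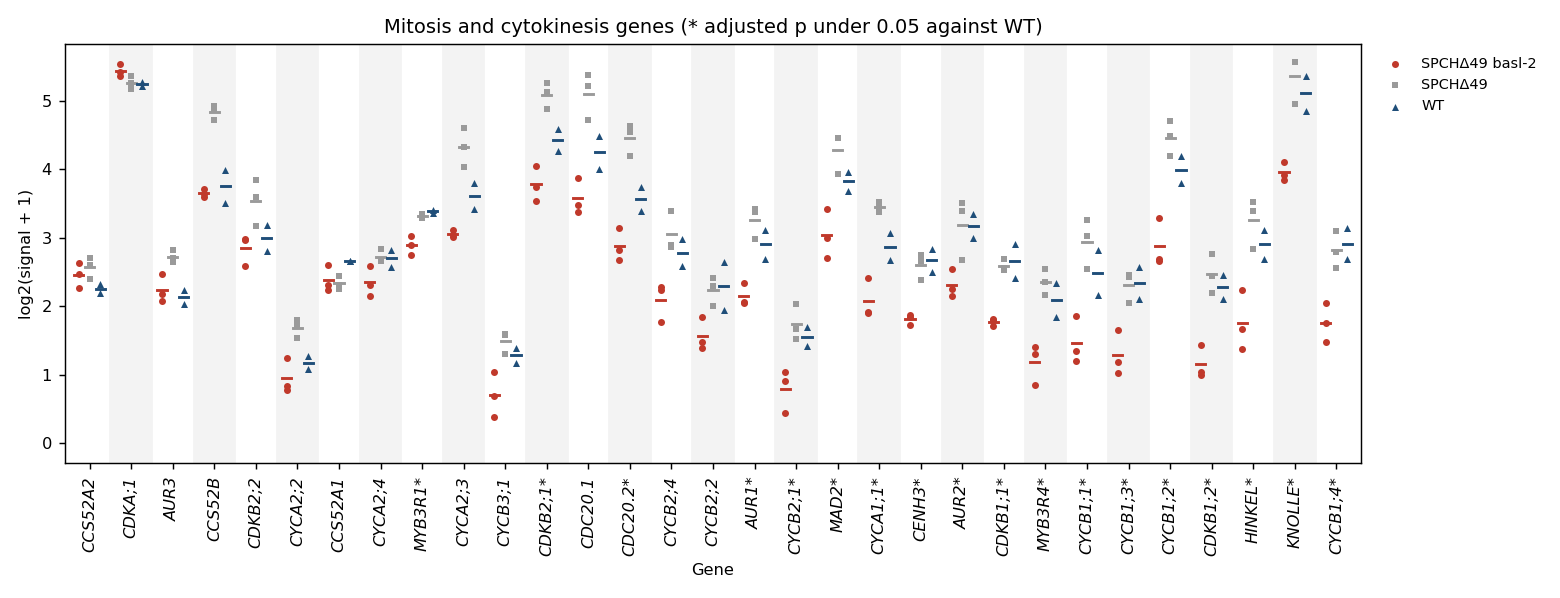
Signal of the listed mitosis and cytokinesis genes as log2(signal + 1), a point per library and a bar at the group mean, for SPCHΔ49 basl-2 (3 libraries), SPCHΔ49 (3) and WT (2); genes run from the highest to the lowest log2 fold change against WT and an asterisk marks an adjusted p under 0.05 against WT. SPCHΔ49 basl-2 lies lowest in every gene with an asterisk, and the WT pair is spread widely in genes such as CYCB1;1, KNOLLE and HINKEL.

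Among 22 D-type cyclins and CDK inhibitors 1 was higher and 7 were lower (4 without either WT replicate and also 4 without SPCHΔ49 basl-2 replicate 1). SMR5 (AT1G07500), a CDK inhibitor induced by oxidative stress, was listed at 0 in all 3 SPCHΔ49 basl-2 libraries and had 5.09 and 17.1 in WT. KRP2 (AT3G50630), another inhibitor, had 17.6, 16.2 and 17.2 in SPCHΔ49 basl-2, against 29.3 and 27.3 in WT (adjusted p 0.00189). Histone genes had 6 of 22 members lower and 1 higher, with HTA10 (AT1G51060), a core histone H2A, at 49.0, 47.3 and 54.7 in SPCHΔ49 basl-2, against 131 and 129 in WT (log2 fold change -1.35, adjusted p 0.000153). Of 29 chromatin and silencing genes 7 were lower (24.1%, near the 21.6% of all genes) and 0 higher. The chromomethylase CMT3 (AT1G69770), which copies non-CG methylation, had 4.91, 5.27 and 6.22 in SPCHΔ49 basl-2, against 10.6 and 11.5 in WT (adjusted p 0.0035). Without WT replicates 1 and 2, 2 and 2 histone genes and 2 and 1 chromatin genes were lower. The chromatin number was 4 and 3 without SPCHΔ49 basl-2 replicates 1 and 2, and the 1 higher histone gene was not called without either WT replicate, SPCHΔ49 basl-2 replicate 1 or 2, or SPCHΔ49 replicate 2 or 3, and 3 histone genes were higher without SPCHΔ49 basl-2 replicate 3.

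Many genes of carbon fixation and photorespiration were lower, while most genes of light harvesting did not pass the test. Of 27 genes of the Calvin cycle and photorespiration 16 were lower and 1 higher, with a median log2 fold change of -0.68. Against SPCHΔ49 4 of these genes were higher and 0 lower, with 1 higher without SPCHΔ49 basl-2 replicate 1 or 2 or SPCHΔ49 replicate 2 or 3. Of 30 nuclear genes of light harvesting and the photosystems 2 were lower and 0 higher, with a median of -0.01. Of all genes 21.6% were lower, against 6.67% of the light-harvesting list. After quantile normalization 4 light-harvesting genes were lower and 5 higher. GLDP1 (AT4G33010), a glycine decarboxylase subunit of photorespiration, had 143, 103 and 116 in SPCHΔ49 basl-2, against 411 and 330.0 in WT. SBPASE (AT3G55800), sedoheptulose bisphosphatase, had 227, 188 and 261 in SPCHΔ49 basl-2, against 458 and 469 in WT. The Rubisco small subunit gene RBCS1B (AT5G38430), whose near-identical copies share reads, had 506, 302 and 559.9 in SPCHΔ49 basl-2, against 1952 and 1563 in WT. All SPCHΔ49 basl-2 libraries lay below WT in these genes, with log2 fold changes of -1.62, -1.05 and -1.98 (adjusted p 0.000713, 0.00223 and 0.00168). The member that was higher is AGT (AT2G13360), the peroxisomal aminotransferase that makes glycine from glyoxylate, with 3486, 3566 and 2262 in SPCHΔ49 basl-2, against 1136 and 1152 in WT (log2 fold change 1.41, adjusted p 0.0053). Without WT replicates 1 and 2, 7 and 4 Calvin cycle and photorespiration genes were lower.

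The lower members of the light-harvesting list were PSAH2 and PSBS. PSAH2 (AT1G52230), a photosystem I subunit, had 1314, 1209 and 1090.0 in SPCHΔ49 basl-2, against 2450.3 and 2615 in WT (adjusted p 0.00201). PSBS (AT1G44575), the sensor of excess light, had 953, 975 and 773 in SPCHΔ49 basl-2, against 1866 and 1733 in WT (adjusted p 0.00597, and 0.0539 without WT replicate 1). The antenna genes LHCB1.3 and LHCA3 did not pass, with log2 fold changes of 0.55 and 0.50. Chlorophyll synthesis had 10 of 22 members lower and 1 higher. DVR (AT5G18660), divinyl reductase, had 32.9, 30.5 and 30.7 in SPCHΔ49 basl-2, against 72.5 and 71.6 in WT. CHLI1 (AT4G18480), the ATPase of magnesium chelatase, had 184, 183 and 186 in SPCHΔ49 basl-2, against 362 and 364 in WT. These values were tight, with log2 fold changes of -1.17 (SE 0.09, adjusted p 0.000146) and -0.97 (SE 0.08, adjusted p 0.000207). PORB (AT4G27440), a light-dependent protochlorophyllide reductase, was the higher member with 758, 639 and 642 in SPCHΔ49 basl-2, against 265 and 442 in WT (adjusted p 0.0122, and 0.0606 without WT replicate 1). Lower members numbered 6 without WT replicate 2.

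Many genes of the iron deficiency response were lower. Of 27 iron homeostasis genes 13 were lower and 1 higher, and the number lower was between 12 and 15 when any 1 library was left out. The number higher was 3 without SPCHΔ49 basl-2 replicate 2, and 2 without SPCHΔ49 basl-2 replicate 3, WT replicate 1 or SPCHΔ49 replicate 3. IRT1 (AT4G19690), the iron importer of the root epidermis, had 0, 0.0478 and 0 in SPCHΔ49 basl-2, against 16.1 and 27.4 in WT. FIT (AT2G28160), the root regulator that drives it, had 0.521, 0.211 and 0.0766 in SPCHΔ49 basl-2, against 5.45 and 5.23 in WT. Both were below 1 in every SPCHΔ49 basl-2 library, with log2 fold changes of -4.44 and -2.34 (adjusted p 2.14e-05 and 0.000114). The genes of the FIT partners BHLH100, BHLH39 and BHLH38, which leaves express too, were also lower. BHLH100 (AT2G41240) had 0.112, 0.447 and 2.77 in SPCHΔ49 basl-2, against 44.6 and 78.0 in WT. BHLH39 (AT3G56980) had 0.127, 0.422 and 1.83 in SPCHΔ49 basl-2, against 36.1 and 59.6 in WT. BHLH38 (AT3G56970) had 0.0732, 0.585 and 2.38 in SPCHΔ49 basl-2, against 28.3 and 62.6 in WT. Replicate 3 was the highest SPCHΔ49 basl-2 library in each of the 3 and still lay over 10 times below the lower WT library (log2 fold changes -5.04, -4.84 and -4.59, adjusted p 0.000911, 0.000308 and 0.000695). OPT3 (AT4G16370), which loads iron into the phloem, had 26.1, 36.7 and 41.0 in SPCHΔ49 basl-2, against 101 and 129 in WT (log2 fold change -1.72, adjusted p 0.00141). The ubiquitin ligase BTS (AT3G18290), which limits the deficiency response, had 29.2, 27.2 and 38.3 in SPCHΔ49 basl-2, against 64.1 and 87.3 in WT (log2 fold change -1.23, adjusted p 0.00279). FER4 (AT2G40300), a ferritin that stores iron, was higher with 53.0, 40.2 and 35.2 in SPCHΔ49 basl-2, against 17.3 and 18.7 in WT (log2 fold change 1.18, SE 0.18, adjusted p 0.00339). IRT1, FRO2 and COPT2, all lower, also belong to the root nutrient list, and what part the low root markers have in the iron counts was not tested.

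**Figure D4:**
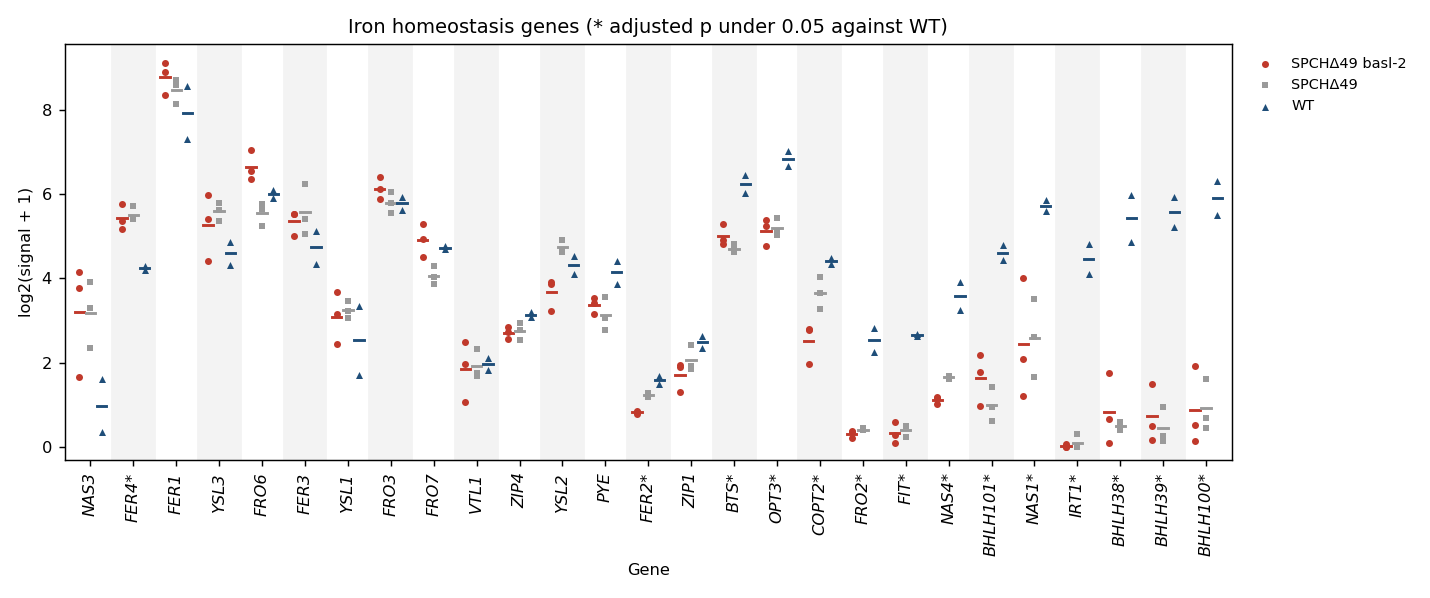
Signal of the listed iron homeostasis genes as log2(signal + 1), a point per library and a bar at the group mean, for SPCHΔ49 basl-2 (3 libraries), SPCHΔ49 (3) and WT (2); genes run from the highest to the lowest log2 fold change against WT and an asterisk marks an adjusted p under 0.05 against WT. The right-hand genes, from BTS to BHLH100, show both overexpressors below WT, and FER4 is the asterisk on the higher side.

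Sulfur and phosphate genes were less uniform. Of 20 sulfur genes 5 were lower (25%, near the 21.6% of all genes) and 1 higher. SULTR1;2 (AT1G78000), the sulfate importer of roots, had 1.78, 2.21 and 4.05 in SPCHΔ49 basl-2, against 16.0 and 22.5 in WT (adjusted p 0.00135). Leave-outs moved the lower count between 1 (without WT replicate 2) and 13 (without SPCHΔ49 basl-2 replicate 3), and it was 3 without SPCHΔ49 basl-2 replicate 1 or 2, WT replicate 1 or SPCHΔ49 replicate 2. Of 17 phosphate starvation genes 3 were higher and 2 lower. SPX4 (AT5G15330), a phosphate sensor of the cytosol, had 18.1, 20.7 and 15.1 in SPCHΔ49 basl-2, against 8.25 and 8.84 in WT (adjusted p 0.00445). PHO1 (AT3G23430), which loads phosphate into the xylem, had 7.45, 5.34 and 7.28 in SPCHΔ49 basl-2, against 25.1 and 26.1 in WT (adjusted p 0.000325). The groups did not overlap in either. SPX3 (AT2G45130), induced by low phosphate, had 16.7, 0.0854 and 22.6 in SPCHΔ49 basl-2, against 0.147 and 0.186 in WT, and did not pass (adjusted p 0.195). Without SPCHΔ49 basl-2 replicate 2, in which it and 3 more members were at least 4-fold below both other replicates, 8 members were higher. Without WT replicate 1 the number was 1. The lower count was 1 without either WT replicate, SPCHΔ49 basl-2 replicate 1 or 3, or SPCHΔ49 replicate 2.

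Most phenylpropanoid and vascular genes were lower than in WT. Against SPCHΔ49 1 phenylpropanoid gene was higher and 1 lower, and 0 vascular genes were higher and 1 lower. Leaving out some single libraries ended each of these calls. Of 18 genes from phenylalanine to lignin monomers 15 were lower and 0 higher (median log2 fold change -1.11), 9 without WT replicate 1. PAL4 (AT3G10340), a phenylalanine ammonia-lyase at the entry, had 3.1, 2.45 and 2.35 in SPCHΔ49 basl-2, against 14.2 and 15.6 in WT. 4CL1 (AT1G51680), the next ligase, had 40.4, 38.1 and 48.3 in SPCHΔ49 basl-2, against 109 and 95.0 in WT. CAD9 (AT4G39330), an alcohol dehydrogenase of the last step, had 69.5, 74.4 and 68.5 in SPCHΔ49 basl-2, against 123 and 142 in WT. Groups did not overlap in any of the 3, with log2 fold changes of -2.13, -1.26 and -0.89 (adjusted p 7.88e-05, 0.000487 and 0.000584). Of 23 vascular and secondary wall genes 15 were lower and 0 higher, and 6 were lower without WT replicate 2. PXY (AT5G61480), the receptor kinase of the cambium, had 6.48, 5.54 and 6.87 in SPCHΔ49 basl-2, against 13.2 and 11.6 in WT (adjusted p 0.00217). IRX9 (AT2G37090), a xylan synthesis gene, had 0.555, 0.383 and 0.780 in SPCHΔ49 basl-2, against 2.19 and 2.30 in WT (adjusted p 0.00173). The phloem companion cell gene SUC2 (AT1G22710) had 76.8, 56.7 and 80.7 in SPCHΔ49 basl-2, against 70.7 and 81.6 in WT and did not pass (adjusted p 0.657).

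Of 14 flavonoid and anthocyanin genes 7 were lower and 3 higher. Against SPCHΔ49 0 of them passed, with 1 higher without SPCHΔ49 basl-2 replicate 3. CHS (AT5G13930), chalcone synthase at the entry, had 28.1, 17.0 and 31.8 in SPCHΔ49 basl-2, against 170.1 and 165 in WT. F3H (AT3G51240) of the middle of the pathway had 6.14, 4.6 and 6.21 in SPCHΔ49 basl-2, against 24.9 and 28.6 in WT. TT19 (AT5G17220), which carries anthocyanins to the vacuole, had 0, 0 and 0.0742 in SPCHΔ49 basl-2, against 2.82 and 5.37 in WT. SPCHΔ49 basl-2 lay below WT in all libraries of these genes, with log2 fold changes of -2.71, -2.07 and -2.27 (adjusted p 0.00209, 0.000129 and 0.000325). The 3 higher members were TTG1, F3'H and MYBL2, of which 1 passed without WT replicate 1 and 0 without WT replicate 2. Among 26 glucosinolate genes 10 were lower and 1 higher, at a median of -1.31. UGT74C1 (AT2G31790), a glucosyltransferase of the core pathway, had 29.8, 24.7 and 30.0 in SPCHΔ49 basl-2, against 65.0 and 53.1 in WT (adjusted p 0.00182). CYP79B3 (AT2G22330), which starts the indole branch, had 22.0, 18.2 and 27.3 in SPCHΔ49 basl-2, against 100.1 and 100.1 in WT (adjusted p 0.000405). Members of this list spread among the SPCHΔ49 basl-2 libraries, 5 of them being at least 4-fold lower in replicate 2 than in both others. The lower count was 17 without SPCHΔ49 basl-2 replicate 3, and 5 and 4 without WT replicates 1 and 2.

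Of 23 ethylene genes 8 were higher and 1 lower, the largest share of higher members among the 8 hormone lists. These lists, too, were chosen with earlier results of these data known. EIN3 (AT3G20770), the transcription factor of the response, had 135, 142 and 134 in SPCHΔ49 basl-2, against 74.8 and 77.5 in WT. EBF2 (AT5G25350), the F-box protein that removes EIN3, had 80.6, 70.6 and 76.0 in SPCHΔ49 basl-2, against 32.1 and 38.4 in WT. The receptor gene ERS1 (AT2G40940) had 43.3, 39.8 and 45.5 in SPCHΔ49 basl-2, against 25.4 and 27.0 in WT. Spread was small in all 3, and the log2 fold changes were 0.84, 1.09 and 0.69 (SE 0.08, 0.12 and 0.10, adjusted p 0.000345, 0.000842 and 0.00217). EBF2 and ERS1 were also higher than in SPCHΔ49, by 0.98 and 0.76 (adjusted p 0.00643 and 0.00645), while EIN3 differed by 0.03 and did not pass. ERF104 (AT5G61600), an ethylene response factor of defence, had 59.1, 113 and 63.6 in SPCHΔ49 basl-2, against 16.6 and 14.0 in WT (adjusted p 0.00444). Without either WT replicate 5 members were higher.

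Auxin genes had 2 of 35 members higher and 6 lower (17.1%, near the 21.6% of all genes). PIN2 (AT5G57090), the efflux carrier of the root epidermis, had 0.397, 0.871 and 0.614 in SPCHΔ49 basl-2, against 6.35 and 7.48 in WT. It was lower without overlap, with a log2 fold change of -2.29 (adjusted p 6.72e-05). IAA17 (AT1G04250), a repressor of auxin response, had 15.7, 18.9 and 16.1 in SPCHΔ49 basl-2, against 69.3 and 73.9 in WT (log2 fold change -2.03, SE 0.17, adjusted p 0.00019), and still stood above SPCHΔ49, with 6.03, 4.77 and 3.89 there, by 1.61 (adjusted p 0.00407). The higher members GH3.5 and IAA7 depended on WT, since 0 passed without WT replicate 1 and 1 without WT replicate 2, whereas 4 passed without SPCHΔ49 basl-2 replicate 1 or 3 or SPCHΔ49 replicate 1 and 5 without SPCHΔ49 replicate 3. Cytokinin genes had 6 of 25 lower (24%, near the 21.6% of all genes) and 1 higher. The lowest adjusted p was that of IPT5 (AT5G19040), a cytokinin synthesis gene, with 0.234, 0.355 and 0.126 in SPCHΔ49 basl-2, against 2.93 and 3.01 in WT (8.51e-05). Of 19 gibberellin genes 3 were higher (15.8%, near the 12.6% of all genes) and 2 lower, with fewer higher without WT replicate 1. GASA14 (AT5G14920), a gibberellin-regulated small protein, had 271, 421 and 287 in SPCHΔ49 basl-2, against 50.7 and 40.0 in WT (log2 fold change 2.80, SE 0.30, adjusted p 0.000633). The DELLA gene RGL2 (AT3G03450) had 0.702, 0.376 and 0.817 in SPCHΔ49 basl-2, against 3.35 and 3.16 in WT (adjusted p 0.000712).

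Brassinosteroid genes had 4 of 18 members higher and 0 lower, among them CPD (AT5G05690), a synthesis gene, with 662, 765 and 489 in SPCHΔ49 basl-2, against 273 and 286 in WT. Without WT replicates 1 and 2, 1 and 0 passed, and 2 without SPCHΔ49 basl-2 replicate 1 or SPCHΔ49 replicate 2. CPD had an adjusted p of 0.00876, or 0.0669 and 0.0565 without WT replicates 1 and 2. Of 27 jasmonate genes 5 were lower (18.5%, near the 21.6% of all genes) and 1 higher. The defensin gene PDF1.2 (AT5G44420), which has near-identical copies, had 1.42, 0 and 1.05 in SPCHΔ49 basl-2, against 58.6 and 31.4 in WT (adjusted p 0.000893). Without WT replicate 1 the lower count was 1. It was 3 without WT replicate 2, SPCHΔ49 basl-2 replicate 1 or SPCHΔ49 replicate 2. Of 33 abscisic acid genes 7 were lower (21.2%, near the 21.6% of all genes) and 1 higher. The dehydration gene RD22 (AT5G25610) had 120.0, 52.9 and 109.8 in SPCHΔ49 basl-2, against 453 and 528 in WT (adjusted p 0.00356). KIN1 (AT5G15960), induced by cold and drought, had 2.04, 0.411 and 2.63 in SPCHΔ49 basl-2, against 36.1 and 80.8 in WT (adjusted p 0.00367). The WT pair itself was apart in KIN1, and the abscisic acid count was 3 without WT replicate 2 and 4 without SPCHΔ49 basl-2 replicate 1 or 2.

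Of 23 xyloglucan endotransglucosylase/hydrolase (XTH) genes 5 were higher and 6 lower, and 2 were higher without WT replicate 2. XTH25 (AT5G57550) had 47.3, 43.8 and 54.6 in SPCHΔ49 basl-2, against 4.88 and 2.17 in WT. XTH24 (AT4G30270) had 798, 801 and 1323 in SPCHΔ49 basl-2, against 332 and 147 in WT. Replicate 3 was the highest SPCHΔ49 basl-2 library of both. XTH22 (AT5G57560), the touch-induced TCH4, had 169, 516 and 235 in SPCHΔ49 basl-2, against 27.3 and 21.1 in WT. XTH15 (AT4G14130) had 295, 1024 and 431 in SPCHΔ49 basl-2, against 26.7 and 24.3 in WT. Replicate 2 was more than 2 times both other SPCHΔ49 basl-2 libraries in XTH22 and XTH15. Their log2 fold changes were 3.46 (adjusted p 0.00563, and 0.052 without WT replicate 2) and 4.26 (0.00664, and 0.0533), beside 3.51 (0.00019) for XTH25 and 2.09 (0.00511) for XTH24. XTH31 (AT3G44990), a root enzyme, had 2.27, 1.03 and 1.5 in SPCHΔ49 basl-2, against 36.7 and 45.8 in WT (log2 fold change -4.04, adjusted p 2.59e-05), and XTH20 and XTH21 were at or near 0 in SPCHΔ49 basl-2.

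Of 17 expansin genes 8 were lower and 1 higher (5 lower without WT replicate 2). EXPA4 (AT2G39700) had 16.8, 19.0 and 21.9 in SPCHΔ49 basl-2, against 74.4 and 90.7 in WT (adjusted p 0.00175). EXPB3 (AT4G28250) had 4.48, 2.87 and 8.53 in SPCHΔ49 basl-2, against 61.8 and 83.4 in WT (adjusted p 0.0014). Neither reached a WT library. Aquaporins had 5 of 23 members higher and 8 lower. The root tonoplast channel TIP4;1 (AT2G25810) had 0.199, 0 and 0.751 in SPCHΔ49 basl-2, against 9.90 and 14.4 in WT (adjusted p 0.000151). The plasma membrane channel PIP2;6 (AT2G39010) had 427, 446 and 447 in SPCHΔ49 basl-2, against 237 and 283 in WT (adjusted p 0.00212). Higher aquaporins numbered 2 and 1 without WT replicates 1 and 2, 2 and 3 without SPCHΔ49 basl-2 replicates 1 and 2 and 3 without SPCHΔ49 replicate 2, and lower ones 5 without WT replicate 1. Of 31 cuticle and wax genes 7 were lower (22.6%, near the 21.6% of all genes) and 1 higher, with fewer lower without either WT replicate. DCR (AT5G23940), an acyltransferase of cutin, had 17.1, 13.2 and 20.5 in SPCHΔ49 basl-2, against 40.2 and 50.4 in WT (adjusted p 0.00277).

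The trichome and R3 MYB list had 2 of 15 members higher (13.3%, near the 12.6% of all genes) and 4 lower (26.7%, against 21.6%). ETC3 (AT4G01060), a single-repeat MYB that moves between epidermal cells, had 24.9, 24.5 and 35.8 in SPCHΔ49 basl-2, against 7.99 and 10.5 in WT (log2 fold change 1.51, SE 0.21, adjusted p 0.00231). Against SPCHΔ49, with 182, 206 and 149, the log2 difference was -2.62 (adjusted p 0.00187). Without WT replicate 2 the higher count was 1, and the lower count was 2 without WT replicate 1 or SPCHΔ49 basl-2 replicate 1. ZFP5 (AT1G10480), a zinc finger gene of trichomes and root hairs, had 0, 0.0419 and 0.0455 in SPCHΔ49 basl-2, against 2.11 and 2.88 in WT (adjusted p 8.56e-05).

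Of 21 flowering time genes 10 were higher and 3 lower, with a median log2 fold change of 0.73. Promoters of flowering were among the higher members. SPL3 (AT2G33810), a factor of the age pathway, had 80.3, 109 and 78.2 in SPCHΔ49 basl-2, against 15.9 and 19.9 in WT. AGL24 (AT4G24540) had 14.9, 11.3 and 18.7 in SPCHΔ49 basl-2, against 2.2 and 1.75 in WT. SOC1 (AT2G45660), which integrates flowering signals, had 69.9, 68.3 and 57.4 in SPCHΔ49 basl-2, against 19.7 and 26.5 in WT. Every SPCHΔ49 basl-2 library was more than 2 times the higher WT library in these 3 genes (log2 fold changes 2.24, 2.40 and 1.47, adjusted p 0.000168, 0.000876 and 0.00175). Repressors were on both sides. MAF2 (AT5G65050), a relative of FLC, had 67.1, 74.4 and 55.0 in SPCHΔ49 basl-2, against 31.0 and 30.6 in WT (adjusted p 0.00232), whereas the AP2-like repressor genes TOE2 (AT5G60120), SMZ (AT3G54990) and SNZ (AT2G39250) were lower, with log2 fold changes of -0.93, -0.92 and -1.80 (adjusted p 0.00139, 0.00382 and 0.00329). FT (AT1G65480), the mobile flowering signal, had 4.43, 1.3 and 15 in SPCHΔ49 basl-2, against 0.801 and 0.345 in WT and did not pass (adjusted p 0.102). SPL3 was also higher than in SPCHΔ49 by 1.54 (adjusted p 0.00573). Without SPCHΔ49 basl-2 replicate 1 or either WT replicate 6 members were higher.

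Of 23 clock genes 6 were higher and 3 lower. PRR7 (AT5G02810), a daytime repressor, had 123, 98.8 and 96.4 in SPCHΔ49 basl-2, against 44.8 and 48.1 in WT (adjusted p 0.000996). ELF3 (AT2G25930) of the evening complex had 22.4, 24.0 and 20.8 in SPCHΔ49 basl-2, against 12.3 and 13.6 in WT (adjusted p 0.00292). LNK1 (AT5G64170), a morning coactivator, had 27.5, 20.4 and 20.0 in SPCHΔ49 basl-2, against 44.2 and 47.6 in WT (adjusted p 0.00246). So PRR7 and ELF3 were higher and LNK1 lower, with no overlap. The labels give no time of day of harvest. Higher clock members numbered 2 without either WT replicate and 3 without SPCHΔ49 basl-2 replicate 2, and lower ones 1 without either WT replicate, SPCHΔ49 basl-2 replicate 2 or 3, or SPCHΔ49 replicate 2. Of 28 leaf and meristem genes 2 were higher and 5 lower (17.9%, near the 21.6% of all genes). KNAT1 (AT4G08150), a homeobox gene of the stem and meristem, had 2.17, 2.83 and 2.16 in SPCHΔ49 basl-2, against 8.23 and 8.83 in WT (adjusted p 0.000546). The meristem receptor CLV1 (AT1G75820) had 34.1, 32.7 and 26.5 in SPCHΔ49 basl-2, against 14.8 and 14.2 in WT (adjusted p 0.00365). Both the higher and the lower number were 1 without either WT replicate. The higher number was 4 without SPCHΔ49 basl-2 replicate 3 or SPCHΔ49 replicate 1, and the lower number 3 without SPCHΔ49 basl-2 replicate 1 or SPCHΔ49 replicate 2.

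Of 10 floral and pollen genes chosen, only 3 were in the table. PI (AT5G20240), which specifies petals and stamens, and SEP3 were higher and SHP1 was lower. PI had 2.59, 5.68 and 2.83 in SPCHΔ49 basl-2, against 0.645 and 0.392 in WT (adjusted p 0.00509). SEP3 and SHP1 lost their calls without a WT replicate (adjusted p 0.154 without WT replicate 2 for SEP3, and 0.0565 and 0.0641 without WT replicates 1 and 2 for SHP1). Of 17 seed genes chosen, 6 were in the table, with 5 lower and 0 higher. Their sums were 2.95, 1.17 and 1.94 in SPCHΔ49 basl-2 and 2.02, 3.97 and 4.16 in SPCHΔ49, against 113.6 and 22.6 in WT. Genes near 0 in both overexpressors could be listed only through WT and could only come out lower, so this count carries little weight. EM6 (AT2G40170), a late embryogenesis protein gene, was listed at 0 in all SPCHΔ49 basl-2 libraries and had 7.82 and 7.44 in WT, and OLEO2 (AT5G40420), an oil body protein, had 0.0890, 0 and 0 in SPCHΔ49 basl-2, against 7.83 and 3.78 in WT. EM6 and OLEO2 were called without any 1 library (adjusted p 5.26e-05 and 0.000345 with all 8). CRA1 (AT5G44120), a seed storage globulin, had 0.0896, 0.0848 and 0.184 in SPCHΔ49 basl-2, against 86.5 and 1.85 in WT, so the WT pair was itself far apart. In senescence genes 2 of 13 were higher and 1 was lower, 0 being higher without SPCHΔ49 basl-2 replicate 1 or either WT replicate and 1 without SPCHΔ49 basl-2 replicate 3 or SPCHΔ49 replicate 2.

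Of 18 heat shock and chaperone genes 7 were lower and 1 higher (3 lower without WT replicate 1). BIP2 (AT5G42020), a chaperone of the endoplasmic reticulum with the near-identical copy BIP1, had 44.6, 32.4 and 65.5 in SPCHΔ49 basl-2, against 244 and 154 in WT (log2 fold change -2.07, adjusted p 0.00295). HSP81-2 (AT5G56030), a cytosolic HSP90, had 42.8, 35.1 and 52.9 in SPCHΔ49 basl-2, against 128 and 96.8 in WT (log2 fold change -1.35, adjusted p 0.00274). Of 17 cold, light and oxidative stress genes 5 were higher and 6 lower. ZAT12 (AT5G59820), a zinc finger factor of the oxidative response, had 24.0, 43.8 and 47.6 in SPCHΔ49 basl-2, against 6.06 and 5.13 in WT. CAT1 (AT1G20630), a catalase, had 85.7, 64.5 and 97.4 in SPCHΔ49 basl-2, against 23.8 and 21.8 in WT. ELIP2 (AT4G14690), which protects chloroplasts in strong light, had 1.18, 0.604 and 1.5 in SPCHΔ49 basl-2, against 41.8 and 22.1 in WT. The first pair was higher and ELIP2 lower without overlap, with log2 fold changes of 2.53, 1.79 and -3.93 (adjusted p 0.000889, 0.000344 and 0.000151).

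Of 67 plastid-encoded genes 3 were higher (4.48%, against 12.6% of all genes) and 8 lower (11.9%, against 21.6%). Of 34 mitochondrion-encoded genes 6 were higher (17.6%) and 0 lower, the number higher being 20 after quantile normalization. In 6 pairs of the plastid genes and 1 pair of the mitochondrial ones both genes held identical values in all 8 libraries. RPS12B (ATCG01230) and ATCG00905, both called higher, are such a pair (adjusted p 0.0498), so that 2 of 61 distinct plastid measurements were higher and 8 lower. PSBK (ATCG00070), a plastid gene of photosystem II, had 15.6, 14.8 and 10.7 in SPCHΔ49 basl-2 and was at 0 in both WT libraries. Leaving out 1 library moved the lower plastid count between 2 (without WT replicate 2) and 20 (without SPCHΔ49 basl-2 replicate 3), with 4 without SPCHΔ49 basl-2 replicate 1 or 2 or WT replicate 1. The higher plastid count was 1 without SPCHΔ49 basl-2 replicate 1 or 3, either WT replicate or SPCHΔ49 replicate 1. The mitochondrial number was 3 without SPCHΔ49 basl-2 replicate 1 or WT replicate 1 and 1 without WT replicate 2. Of 13 reference genes 3 were lower (23.1%, near the 21.6% of all genes) and 0 higher. Among the lower ones GAPC1 (AT3G04120) had 165, 119 and 241 in SPCHΔ49 basl-2, against 525 and 533 in WT. PP2AA3 and SAND did not pass, at log2 fold changes of 0.06 and 0.03. Without WT replicate 1, 1 reference gene was lower.

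In 17 of these counts a list held a single called member in a direction. Leaving out WT replicate 1 ended that call in 11, WT replicate 2 in 11, SPCHΔ49 basl-2 replicates 1, 2 and 3 in 4, 3 and 2, and SPCHΔ49 replicates 1, 2 and 3 in 0, 4 and 1. The single higher members of the nitrogen, expansin and histone lists and the single lower member of the ethylene list were each lost without 5 or more of the 8 libraries, whereas AGT of the Calvin cycle and photorespiration list and FER4 of the iron list were lost without 0 of them. Other counts of 1 grew. Without SPCHΔ49 basl-2 replicate 3 the lower ethylene count was 3 and the higher chlorophyll, wax and cytokinin counts were 2. The higher jasmonate count was 2 without SPCHΔ49 basl-2 replicate 2, that of wax genes 2 without SPCHΔ49 basl-2 replicate 1, and those of cytokinin and abscisic acid genes 2 without SPCHΔ49 replicate 3. Counts of 0 that grew were the higher light-harvesting count, which was 2 without SPCHΔ49 basl-2 replicate 3, and 5 that came to 1 without SPCHΔ49 basl-2 replicate 2 or 3 or SPCHΔ49 replicate 1 or 3.

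Several of the largest increases had no role in the lists. AT1G25400, uncharacterized, had 86.5, 139.8 and 96.7 in SPCHΔ49 basl-2, against 10.2 and 8.41 in WT (log2 fold change 3.37, SE 0.21, adjusted p 4.98e-05). AT2G15880, a leucine-rich repeat protein gene, had 209, 216 and 148 in SPCHΔ49 basl-2, against 18.3 and 19.3 in WT (log2 fold change 3.26). AT2G41105, an uncharacterized gene, had 24.6, 53.0 and 21.0 in SPCHΔ49 basl-2, against 0.585 and 1.15 in WT (log2 fold change 4.08). All SPCHΔ49 basl-2 libraries of the 3 lay over 7 times above the higher WT library. AT1G27565 had 16.4, 21.4 and 13.9 in SPCHΔ49 basl-2 and was at 0 in both WT libraries, and AT4G26290 had 13.8, 19.5 and 24.9 in SPCHΔ49 basl-2, against 2.17 and 0 in WT. Replicate 2 was the highest library of DVL3 (AT1G67265), of a family of small peptides, with 30.7, 86.1 and 18.2 in SPCHΔ49 basl-2, against 1.41 and 4.23 in WT (adjusted p 0.0116, and 0.0975 without WT replicate 1). The phosphate-responsive family gene AT1G35140 had 65.7, 362 and 112 in SPCHΔ49 basl-2, against 16.7 and 10.7 in WT, with an adjusted p of 0.041 that was lost without SPCHΔ49 basl-2 replicate 2 or 3, either WT replicate or SPCHΔ49 replicate 2 (0.0586 to 0.191).

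The 15 largest decreases ran from a log2 fold change of -7.73 (ATGRP9) to -5.56 (AT5G46890). AT5G46890 and AIR1B (AT4G12545), both of the lipid transfer protein family, were listed at 0 in all SPCHΔ49 basl-2 libraries and had 41.2 and 51.6 for AT5G46890 and 62.9 and 38.3 for AIR1B in WT. The extensin-like gene AT1G23720 had 0, 0.0469 and 0.451 in SPCHΔ49 basl-2, against 60.7 and 53.8 in WT. AT3G28550, of the same family, had 0, 0.255 and 0.858 in SPCHΔ49 basl-2, against 91.8 and 87.5 in WT. AT3G25820, a cineole synthase gene that has a near-identical copy, had 0.0919, 0.336 and 0.477 in SPCHΔ49 basl-2, against 67.2 and 64.0 in WT. These were all but gone, with log2 fold changes between -6.09 and -5.56. Others kept signal in replicate 3. ATGRP9 (AT2G05440), a glycine-rich wall protein, had 0, 8.13 and 122 in SPCHΔ49 basl-2, against 1814 and 2691 in WT. MLP34 (AT1G70850), a latex-protein-like gene with near-identical relatives, had 0.172, 9.66 and 27.2 in SPCHΔ49 basl-2, against 774 and 775 in WT. ATDR4 (AT1G73330), a drought-repressed gene, had 6.24, 4.17 and 79.6 in SPCHΔ49 basl-2, against 778 and 710.1 in WT. Their adjusted p-values of 0.0221, 0.00679 and 0.0172 became 0.105, 0.0531 and 0.101 when WT replicate 1 was left out, and 0.12, 0.0525 and 0.0925 when WT replicate 2 was. Those of ATGRP9 without SPCHΔ49 basl-2 replicate 2 and of ATDR4 without replicate 1 were 0.0504 and 0.0559. The mean of SPCHΔ49 basl-2 was over 10 times that of WT in 66 genes. The WT mean was over 10 times that of SPCHΔ49 basl-2 in 686. Few genes silent in WT are in the table, and what part this has in these numbers was not tested.

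Replicate 2 of SPCHΔ49 basl-2 stood apart from replicates 1 and 3 in genes of defence and in most of the genes with the largest spread within the group. LURP1 (AT2G14560), a pathogen-responsive gene, had 65.4, 0.561 and 139 in SPCHΔ49 basl-2, against 2.62 and 0.201 in WT. AT3G22235, a cysteine-rich membrane protein gene, had 209.7, 1.1 and 234 in SPCHΔ49 basl-2, against 39.3 and 2.97 in WT. PCR1 (AT1G14880), a cadmium resistance gene, had 35.8, 0 and 81.3 in SPCHΔ49 basl-2, against 0.38 and 0.181 in WT. Replicate 2 was at or near 0 in all 3, and none of them passed against WT. AT4G12495, uncharacterized, had 60.4, 0 and 63.7 in SPCHΔ49 basl-2, against 782 and 85.4 in WT, with the WT pair apart as well. Among salicylic acid defence genes 7 of 19 were at least 4-fold lower in replicate 2 than in both others, the largest share of any list. PR1 (AT2G14610), the marker of the response, had 31.4, 0 and 79.3 in SPCHΔ49 basl-2, against 0.549 and 0.0951 in WT. PR2 (AT3G57260) had 26, 0.875 and 76.3 in SPCHΔ49 basl-2, against 2.01 and 0.892 in WT. WRKY70 (AT3G56400), a regulator of it, had 39.8, 8.14 and 73.2 in SPCHΔ49 basl-2, against 5.36 and 2.05 in WT. None of the 3 passed (adjusted p 0.233, 0.22 and 0.0529). Over the list the median log2 fold change came to 0.75, but 2 members were higher and 0 lower. NPR3 (AT5G45110), a salicylic acid receptor, had 13.7, 13.6 and 21.2 in SPCHΔ49 basl-2, against 7.16 and 7.55 in WT (adjusted p 0.00832, and 0.0643 and 0.0536 without WT replicates 1 and 2). CBP60G (AT5G26920), an activator of its synthesis, had 16.3, 11.1 and 33.4 in SPCHΔ49 basl-2, against 3.17 and 1.78 in WT (adjusted p 0.0128, and 0.0562 and 0.0962). Without SPCHΔ49 basl-2 replicate 2, 5 members were higher, without SPCHΔ49 replicate 1 4, and without either WT replicate 0.

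**Figure D5:**
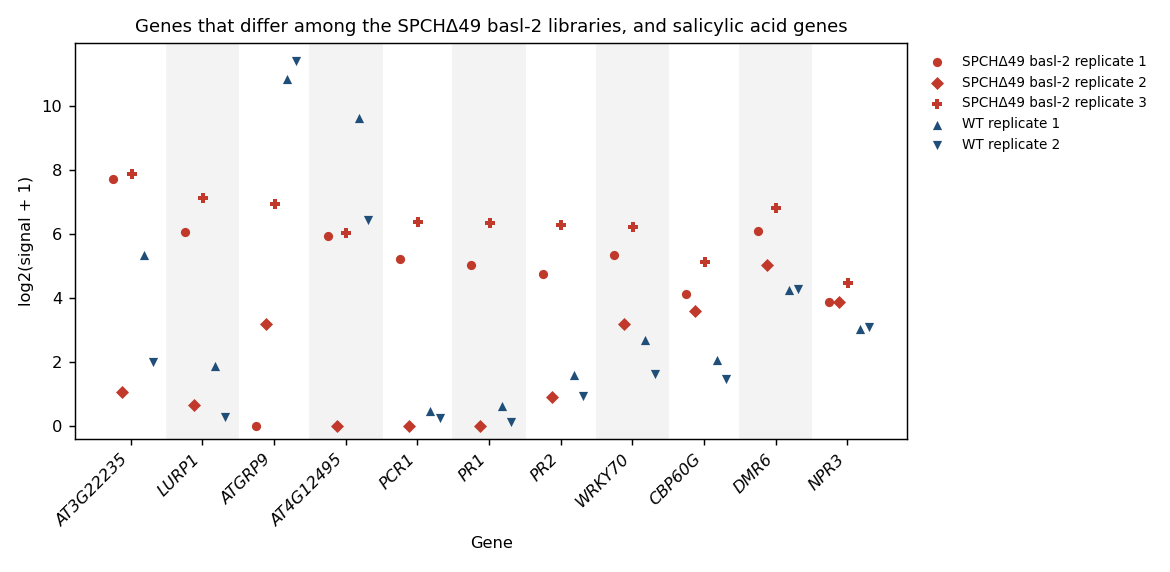
Signal as log2(signal + 1) in each SPCHΔ49 basl-2 library (left) and each WT library (right) for the 5 genes with the largest SD over the SPCHΔ49 basl-2 libraries and for 6 salicylic acid defence genes. Replicate 2 lies at or near 0 in AT3G22235, LURP1, AT4G12495, PCR1 and PR1, and ATGRP9 is at 0 in replicate 1.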

How the data were processed

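RNA from whole seedlings was sequenced in 8 libraries, prepared with Illumina TruSeq kits per the labels' protocols. Trimmomatic 0.38, kallisto 0.44.0 and sleuth are named in the submitters' processing notes, and no source used here gives their settings or the genome build. The deposited table holds an expression signal per gene that is headed TPM; its totals differ between libraries, so it had been rescaled by a step no source states, and read depth is unknown. TPM had been assumed before the table was opened, and the test needed no change. Genes that share reads with near-identical copies are uncertain, and so are overlapping genes, since strand use is not stated.

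Values were taken as log2(signal + 1) and fitted with limma 3.58.1 (R 4.3.3) over all 8 libraries, with 1 mean per genotype and a trend of variance with level. The 3 SPCHΔ49 libraries add only to the spread. The contrast was SPCHΔ49 basl-2 minus WT, two-sided, with Benjamini-Hochberg adjustment over 18855 genes and a threshold of 0.05. The filter, which asked for 2 or more samples with a signal of 1 or more, removed 0 genes. Every listed gene already met it, so genes that fell short of it are absent from the deposited table. The fit was tested on simulated data. SPCHΔ49 basl-2 minus SPCHΔ49, from the same fit, tested differences for named genes and lists.

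The 48 gene lists (1117 listed members) and the alternatives were chosen with earlier results of these data known. Named genes were SPCH and BASL, the 15 largest changes in each direction among called genes without overlap and with a mean signal of at least 5 in the higher group, up to 3 called members of each list per direction, every called lineage regulator, and the 5 genes with the largest SD among SPCHΔ49 basl-2 libraries; other members are given with their values. A result for 1 of the named genes is not reported here. Gene names came from the table for 10306 genes and otherwise from a RefSeq gene table. Alternatives changed the pseudocount, filter, scaling, libraries, variance trend and replicate block. Figures were drawn with matplotlib 3.10.9.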

Additional observations from a re-analysis of the deposited data

Results flagged for a closer look

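Of 39 genes tested, namely SPCH, BASL, the 15 largest changes in each direction and the called lineage regulators, 11 differed between SPCHΔ49 basl-2 and SPCHΔ49 in limma's test of that difference (adjusted p under 0.05 over all genes). Of all genes 2.05% were higher and 3.36% lower in that test. Most of the 39 were chosen by their SPCHΔ49 basl-2 values, which also enter this test, so the count is no independent support. Values are log2 differences, SPCHΔ49 basl-2 minus SPCHΔ49. Of the lineage genes, SPCH differed by -2.62, BASL by -3.77, TMM by -2.83, HDG2 by -0.99 and EPF2 by -1.87. EPF2 lost that call without SPCHΔ49 replicate 2. SPCH, TMM, HDG2 and EPF2 were higher in SPCHΔ49 basl-2 than in WT (EPF2 at an adjusted p of 0.0475), and lower there than in SPCHΔ49. Of the other genes with large increases, THA1 differed by 2.77, BCAT2 by 2.72, RFS2 by 2.54, AT1G27565 by 2.72, AT2G41105 by 2.17 and AT1G25400 by 2.0, all higher in SPCHΔ49 basl-2 than in either other genotype. BCAT2, RFS2 and AT2G41105 lost the call without SPCHΔ49 basl-2 replicate 1 or without SPCHΔ49 replicate 2, and AT1G27565, with an adjusted p of 0.0452 over all 8 libraries, lost it without any 1 library except SPCHΔ49 replicate 3 (0.055 to 0.144).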

How the results depend on the processing

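The number of genes higher in SPCHΔ49 basl-2 than in WT was 2366 with a pseudocount of 0.1, 2277 with 5, 2225 among genes that reached a signal of 5 in 2 or more samples, 3131 after quantile normalization, 2657 after median-ratio rescaling, 1865 from the 5 libraries alone and 2342 without a variance trend. The number lower was 3886, 4156, 2887, 3254, 3784, 3328 and 4115 in the same order. Dropping the filter changed neither. An alternative chosen after seeing the data, nuclear genes alone with median-ratio rescaling, moved neither count by 1.5 times. Leaving out 1 library gave 779 to 2703 genes higher and 2116 to 4349 lower. The lowest counts came without a WT library, where the lone WT sample is assumed to vary like the other groups, with 779 and 825 higher and 2127 and 2116 lower without WT replicates 1 and 2. Without SPCHΔ49 basl-2 replicate 1, 1389 were higher.

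With replicate number as a replicate block over the 5 libraries, 2183 genes were higher and 3497 lower. SPCHΔ49 basl-2 and WT share only numbers 1 and 2, and the deviations of same-numbered libraries correlated at -0.0296 and 0.174. The deviations of the WT pair mirror each other, so these correlations cannot tell whether the numbers pair the samples.

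Of 231 named genes, 0 changed sign in any setting run where they passed in the main fit or in that setting. Sign changes of genes that passed in neither were not counted. Calls lost numbered 63 and 72 without WT replicates 1 and 2, 28 with the block, 15 after quantile normalization, 12 in the 5 libraries, 20, 11 and 13 without SPCHΔ49 basl-2 replicates 1, 2 and 3 and 18 without SPCHΔ49 replicate 2. Called list members whose sign turned after quantile normalization were DEL1 (0.05), SUVH5 (0.08) and VND6 (0.33). The list medians of D-type cyclins, trichome, auxin, leaf and meristem and chromatin genes turned positive there (0.07, 0.16, 0.14, 0.16 and 0.02), and those of auxin and light-harvesting genes after median-ratio rescaling (0.02 and 0.03). Of 439 called list members 207 kept the call in every leave-out. With a minimum signal of 5, fewer members were tested, and 6 root hair, 9 endodermis, 4 flavonoid, 3 cytokinin and 1 seed genes were lower. Light-harvesting genes numbered 5 higher and 4 lower after quantile normalization, and 11 mitosis genes were lower in the 5 libraries alone. With the block, 10 auxin, 5 salicylic acid and 1 phosphate genes were higher and 18 glucosinolate, 18 plastid, 13 heat shock, 12 sulfur and 11 cytokinin genes lower. The cause of these moves was not tested. Read depth is unknown, so what it limits cannot be given, and genes listed at 0 in 1 group have no fold.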
